A study of Homo sapiens with 6 samples.

Results

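The integrated stress response and the unfolded protein response were examined through a list of 38 named genes, looked up by symbol in the count tables of DNMT3B KO and HCT116 cells. All 38 symbols were found once each among 60666 listed genes. The filter on low counts kept 37 of them, among 16959 tested genes, and removed VLDLR. DNMT3B KO is a single derivative of HCT116, a human colorectal cancer line, in which the gene for the de novo DNA methyltransferase DNMT3B was knocked out, and HCT116 cells with wild-type DNMT3B were the comparison. Both were grown in the same McCoy's 5A medium with fetal calf serum and received no treatment. Each line was sequenced as 3 libraries of stranded mRNA. The labels do not state whether replicates were grown as independent cultures, and the p-values therefore cover only library-to-library spread, which may be technical.

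The integrated stress response starts at kinases that phosphorylate the translation factor eIF2, among them PERK, encoded by EIF2AK3, at the endoplasmic reticulum (ER) and GCN2, encoded by EIF2AK4, upon amino acid shortage. Most translation then slows while that of the transcription factor ATF4 increases, and ATF4 activates genes of amino acid uptake, amino acid synthesis and feedback. The unfolded protein response adds the ER sensors IRE1, encoded by ERN1, which splices the mRNA of XBP1, and ATF6, which is cleaved in the Golgi. XBP1 and ATF6 activate ER chaperones, folding enzymes and the machinery that removes misfolded proteins. ATF4 translation, XBP1 splicing and ATF6 cleavage do not appear in counts per gene, so the values below are mRNA levels only. The 38 genes were divided into an ATF4 arm of 25, an XBP1 arm of 4 and an ATF6 arm of 9. XBP1 and ATF6 share many targets, so the line between their arms is a convention.

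Rounded estimated counts summed to between 56277140 and 67624533 in DNMT3B KO libraries and between 55436437 and 68274942 in HCT116 libraries. Levels are given as normalised CPM, each count scaled by the effective size of its library. A gene with no counts could hold up to 3, or 0.0416 to 0.0595 CPM by library, a limit for counting error only. DNMT3B itself measured 2.54, 2.87 and 2.83 CPM in DNMT3B KO and 38.5, 30.1 and 39.5 CPM in HCT116. Among markers of colorectal epithelium, EPCAM averaged 285 CPM in DNMT3B KO and 302 CPM in HCT116, while the summed level of the 12 markers was 2326 to 2521 CPM in DNMT3B KO and 4742 to 5541 CPM in HCT116. Of the 10 epithelial markers tested, 7 were lower and 1 was higher in DNMT3B KO, and LGALS4 and CDX1, both under 1 CPM in every library, were not tested. Summed markers were 15.4 to 18.0 CPM in DNMT3B KO and 9.98 to 19.9 CPM in HCT116 for 8 fibroblast genes, of which LUM was at 0. For 8 immune genes they were 16.0 to 21.5 CPM in DNMT3B KO and 5.97 to 15.3 CPM in HCT116, most of it CD68, with NKG7 at 0, and for 6 endothelial genes 1.49 to 2.01 CPM in DNMT3B KO and 0.674 to 1.62 CPM in HCT116. The part of these shifts in the results below was not tested. HCT116 replicates 2 and 3 lay apart on the second principal component, with a correlation of log CPM of 0.975, against 0.990 to 0.991 between DNMT3B KO libraries.

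The sequence elements through which the arms are known to act were looked for in RefSeq promoter windows (GRCh38.p14), from 250 bases before to 50 after each annotated start, which were given for 34 of the 38 genes. ATF4 binds together with C/EBP proteins at an element searched here as TGATGNAA on both strands, which 4.46% of all 27305 genes with a window held, and 6 of 21 ATF4-arm genes and HERPUD1 held. The ER stress response element, CCAAT and CCACG with 9 bases between them, was in the windows of 0.0916% of all genes, of 3 of 9 ATF6-arm genes and of 1 of 4 XBP1-arm genes. Its variant ERSE-II, ATTGG and CCACG with 1 base between them, was in those of 0.0696% of all genes and of 3 of 9 ATF6-arm genes. The element TGACGTGG was found in 1 member, HYOU1, and in 0.927% of all genes, and there it overlaps an ERSE-II match. The windows of several genes are shown because they hold the textbook element of their arm, so that their expression values can be read beside it. They are 5′ to 3′ in the direction of the gene, with the match in capitals, and are cut to at most 30 bases where they touch an annotated exon. A match is a description of letters and does not show binding.

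CEBPG at chr19:33374036-33374112 (plus strand, TGATGNAA match): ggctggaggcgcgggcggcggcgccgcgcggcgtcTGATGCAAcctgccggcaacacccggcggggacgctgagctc
ASNS at chr7:97872458-97872487 (minus strand, TGATGNAA match): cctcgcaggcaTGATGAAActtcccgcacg
CHAC1 at chr15:40953251-40953280 (plus strand, match on the opposite strand): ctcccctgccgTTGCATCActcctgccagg
XBP1 at chr22:28800598-28800626 (minus strand, ER stress response element): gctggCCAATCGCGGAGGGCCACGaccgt
CALR at chr19:12938359-12938437 (plus strand, ER stress response element on the opposite strand): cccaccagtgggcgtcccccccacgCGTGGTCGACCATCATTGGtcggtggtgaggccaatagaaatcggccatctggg
CRELD2 at chr22:49918519-49918607 (plus strand, ER stress response element on the opposite strand): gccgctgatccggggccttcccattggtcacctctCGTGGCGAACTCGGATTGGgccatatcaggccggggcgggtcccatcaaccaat
HERPUD1 at chr16:56931990-56932070 (plus strand, ERSE-II): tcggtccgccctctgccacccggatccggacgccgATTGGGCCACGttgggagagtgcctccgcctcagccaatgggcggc
HYOU1 at chr11:119057345-119057425 (minus strand, ERSE-II on the opposite strand): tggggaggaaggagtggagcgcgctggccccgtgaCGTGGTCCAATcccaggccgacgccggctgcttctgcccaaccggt
SDF2L1 at chr22:21642079-21642159 (plus strand, ERSE-II on the opposite strand): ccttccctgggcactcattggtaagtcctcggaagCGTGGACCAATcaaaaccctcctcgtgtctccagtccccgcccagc

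Among the 9 genes shown, CEBPG passed the test between the cell lines, and the other 8, of which ASNS and CHAC1 are shown for the same element, did not.

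The fit across all tested genes used edgeR's quasi-likelihood test, with p-values adjusted by the Benjamini-Hochberg method. To compare mRNA levels of the pathway between DNMT3B KO and HCT116 cells, it was read for the 37 genes. Of these, 9 were higher in DNMT3B KO, 3 were lower and 25 did not pass at an adjusted p under 0.05. The 12 that passed are 32.4% of the 37, and 28.1% of all tested genes passed (12.9% higher and 15.1% lower). The share in both directions together is thus near the background. By direction, more members were higher than lower, while more of all tested genes were lower than higher, and this split was not tested. The median log2 fold change, DNMT3B KO over HCT116, was 0.13 over the 37 genes and -0.00 over all tested genes. The median of the 37 genes depended on the HCT116 libraries used. It was 0.00 without HCT116 replicate 2 and 0.23 without HCT116 replicate 3, where that of all tested genes was 0.003 and 0.010. With RLE factors (28% of all genes called) and with no filter (16.6% called), 12 and 13 members passed. By upper-quartile scaling the split was 12 higher and 1 lower, and over all genes 2834 higher and 2090 lower in place of 2196 and 2565. In bulk RNA, a change in every cell and a change in the share of expressing cells cannot be told apart. With a single knockout line, loss of DNMT3B and other differences between that line and HCT116 cannot be told apart either.

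In the ATF4 arm 8 of 24 genes rose and 2 fell. Those that rose were 1 sensor gene, 3 transcription factor genes, 3 feedback genes and 1 enzyme gene, and those that fell were 1 sensor gene and 1 transcription factor gene. In the XBP1 arm 1 of 4 fell and 0 rose, and in the ATF6 arm 1 of 9 rose and 0 fell. Beside these counts, 12.9% of all tested genes were higher and 15.1% lower, and the arms were not tested against each other. All 3 DNMT3B KO libraries lay above all 3 HCT116 libraries for 11 of the 37 genes and below them for 6, where 23.3% and 22.6% of all tested genes did so (45.9% in either direction). Only NUPR1 changed by at least 2-fold with its call, a rule that 6.03% of all tested genes met upwards and 6.72% downwards.

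**Figure D1:**
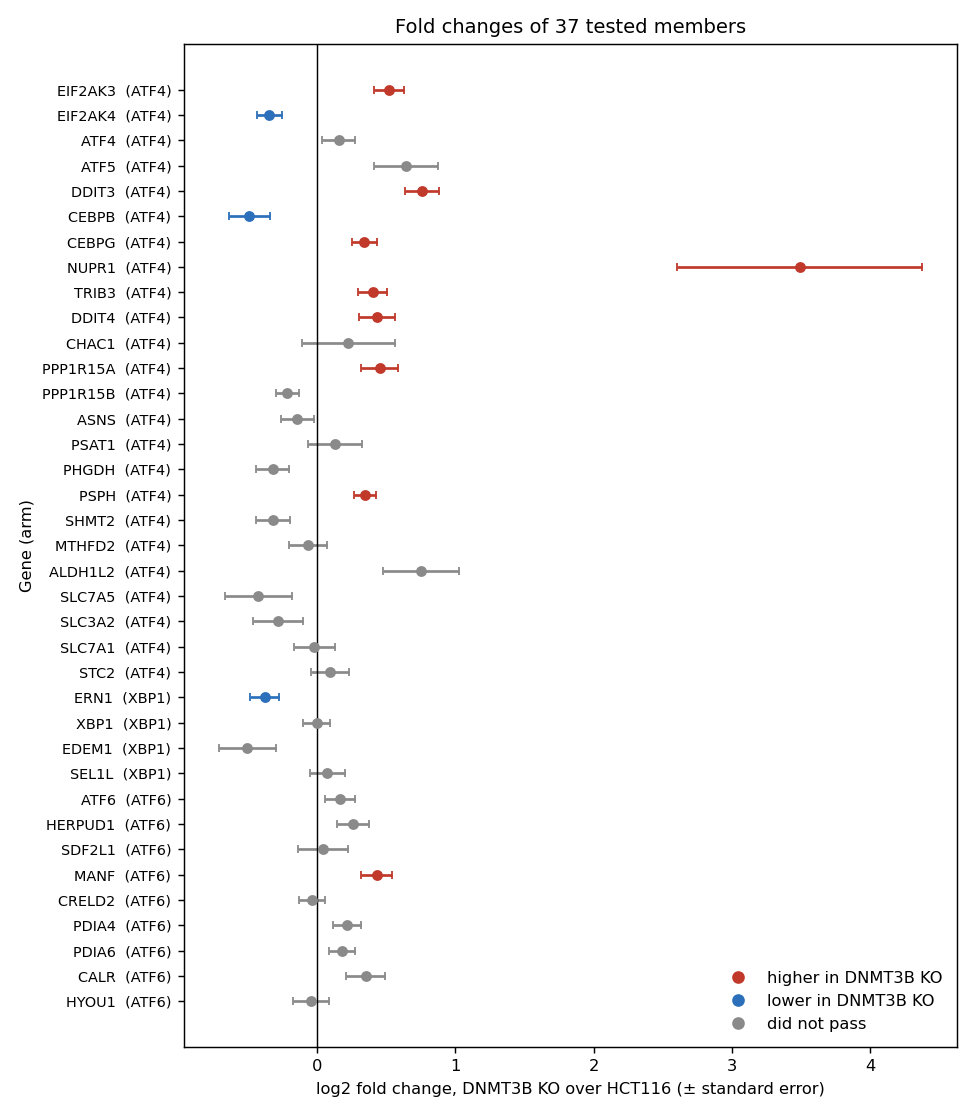
Log2 fold change of DNMT3B KO over HCT116 with its standard error (x axis) for the 37 tested genes, ordered by role with the arm in brackets (y axis). Red points passed the test as higher (9 genes), blue as lower (3 genes) and grey did not pass, and all but NUPR1, at 3.49, lie between -0.50 and 0.76.

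Of the sensors, the genes for PERK and GCN2 moved in opposite directions. EIF2AK3 measured 25.2, 27.7 and 29.3 CPM in DNMT3B KO libraries and 17.6, 20.7 and 19.0 CPM in HCT116 libraries. Every DNMT3B KO library was above every HCT116 library, and the log2 fold change was 0.52 (standard error 0.11, adjusted p = 0.0098). EIF2AK4 measured 97.9, 87.6 and 103.5 CPM in DNMT3B KO and 124, 118 and 126 CPM in HCT116, without overlap, and differed by -0.34 on the log2 scale (standard error 0.09, adjusted p = 0.024). ERN1, the gene of the sensor of the XBP1 arm, was also lower, at 21.0, 23.6 and 21.1 CPM in DNMT3B KO and 28.8, 30.5 and 26.0 CPM in HCT116 (log2 fold change -0.38, standard error 0.11, adjusted p = 0.030). ATF6, the transmembrane sensor of its own arm, measured 85.5, 83.5 and 91.6 CPM in DNMT3B KO and 72.7, 70.7 and 88.5 CPM in HCT116, and the groups overlapped (adjusted p = 0.28). The call of EIF2AK3 was lost without HCT116 replicate 1 (adjusted p = 0.054). That of EIF2AK4 was lost without DNMT3B KO replicate 1 or 2 or HCT116 replicate 1 (adjusted p = 0.082, 0.11 and 0.092), and that of ERN1 without any one of DNMT3B KO replicates 1, 2 and 3 or HCT116 replicate 1 (adjusted p = 0.11, 0.054, 0.11 and 0.10) and by upper-quartile scaling (adjusted p = 0.090).

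The central transcription factors differed among themselves. ATF4 mRNA measured 499, 540 and 436 CPM in DNMT3B KO and 451, 389 and 483 CPM in HCT116, and the groups overlapped (log2 fold change 0.16, standard error 0.12, adjusted p = 0.38). Of the 50-base stretches of the ATF4 transcript 67.1% are found in no other annotated gene, and its pseudogenes ATF4P1, ATF4P3 and ATF4P4 were each below 0.24 CPM. DDIT3, which encodes the stress-induced factor CHOP, measured 17.8, 18.4 and 15.3 CPM in DNMT3B KO and 10.5, 10.1 and 9.78 CPM in HCT116. The lines did not overlap, and the fitted difference was 1.70-fold (0.76 on the log2 scale, standard error 0.12, adjusted p = 0.0028). It was the one gene of the 12 whose call held under all 11 alternatives of fit and libraries, with log2 fold changes from 0.71 to 0.85 and adjusted p from 1.5e-07 to 0.020.

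CEBPG and CEBPB, which encode C/EBP proteins that pair with ATF4 or CHOP, went opposite ways. CEBPG measured 96.9, 97.4 and 104 CPM in DNMT3B KO and 81.1, 70.6 and 83.2 CPM in HCT116 (log2 fold change 0.34, standard error 0.09, adjusted p = 0.026). CEBPB measured 18.7, 19.8 and 18.1 CPM in DNMT3B KO and 23.9, 32.7 and 22.8 CPM in HCT116 (log2 fold change -0.49, standard error 0.15, adjusted p = 0.044). Neither gene overlapped between the lines, and for CEBPB the 18.1 to 19.8 CPM of DNMT3B KO stood against a wide range in HCT116, with replicate 2 highest. Both calls were lost without any one of DNMT3B KO replicates 1, 2 and 3 or HCT116 replicate 1 (adjusted p = 0.078, 0.080, 0.12 and 0.079 for CEBPG, and 0.12, 0.10, 0.13 and 0.068 for CEBPB), and that of CEBPB by upper-quartile scaling (adjusted p = 0.10).

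NUPR1, which encodes a small stress-induced chromatin protein, had the widest difference of the set. It measured 1.76, 5.48 and 2.09 CPM in DNMT3B KO and 0.677, 0.0628 and 0.0595 CPM in HCT116. The highest HCT116 library, replicate 1, was several times above the others, of which replicate 3 held 3 counts. The log2 fold change was 3.49 with a standard error of 0.89 (adjusted p = 0.021), and it ranged from 2.81 to 5.61 over the alternatives. The call was lost without DNMT3B KO replicate 2 (adjusted p = 0.089), the library with the highest level. In GENCODE release 44 a second gene, ENSG00000289754, overlaps NUPR1 on the same strand, and 84.0% of the 50-base stretches of NUPR1 are found in no other gene. ENSG00000289754 is not among the genes listed with counts. Reads from it may thus have been counted for NUPR1, and their part in the difference was not tested. ATF5, a further target of eIF2 signalling, measured 39.4, 44.4 and 34.2 CPM in DNMT3B KO and 23.6, 17.4 and 34.6 CPM in HCT116. HCT116 replicate 3 reached the DNMT3B KO range and the gene did not pass (log2 fold change 0.64, adjusted p = 0.073), while without that library its adjusted p was 0.0033. It also passed by upper-quartile scaling, with DESeq2 and with no filter.

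**Figure D2:**
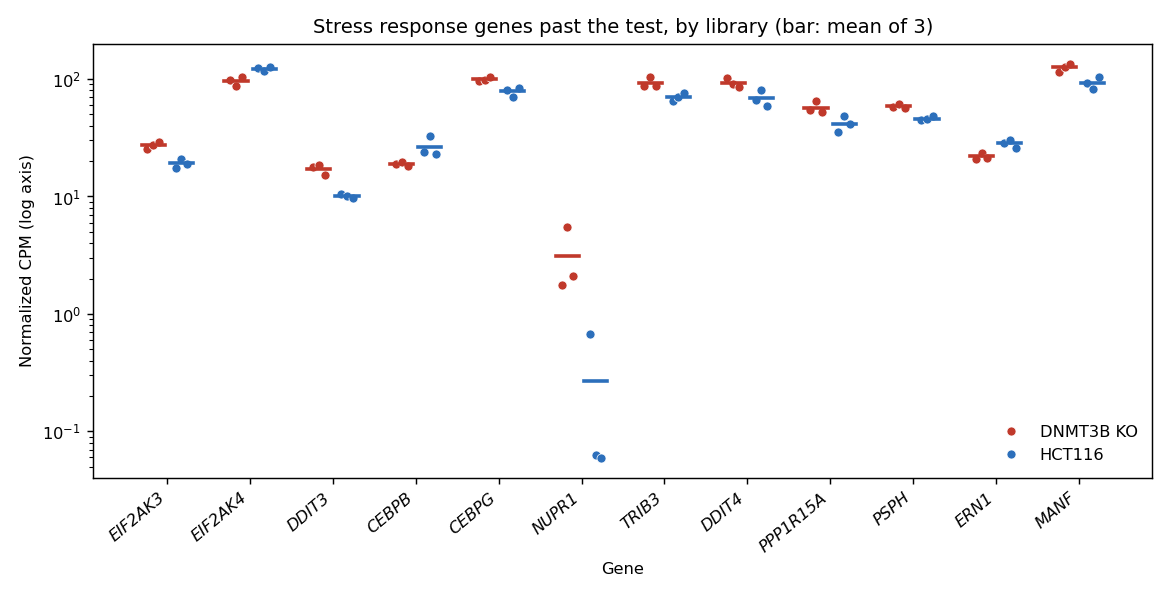
Normalised CPM (y axis, log scale) of the 12 genes that passed the test (x axis), with 1 point per library, DNMT3B KO in red and HCT116 in blue, and a bar at the mean of 3. The lines do not overlap for any gene shown, but the genes were chosen by the test on these values. Of all tested genes 45.9% do not overlap. NUPR1 has the widest spread, at 1.76 to 5.48 CPM in DNMT3B KO and 0.0595 to 0.677 CPM in HCT116.

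In the ATF4 arm 3 of 5 feedback and effector genes rose, where 12.9% of all tested genes did, and so small a list was not tested as a group. TRIB3, a pseudokinase that restrains ATF4 and CHOP, measured 87.6, 104 and 86.9 CPM in DNMT3B KO and 65.3, 70.0 and 75.3 CPM in HCT116 (log2 fold change 0.40, standard error 0.10, adjusted p = 0.022). DDIT4, an inhibitor of mTORC1 signalling, measured 102, 90.3 and 86.0 CPM in DNMT3B KO and 66.4, 80.6 and 59.3 CPM in HCT116 (log2 fold change 0.43, standard error 0.13, adjusted p = 0.039). PPP1R15A, the inducible GADD34 subunit of the eIF2 phosphatase, measured 54.5, 64.7 and 52.0 CPM in DNMT3B KO and 35.5, 48.3 and 41.1 CPM in HCT116 (log2 fold change 0.45, standard error 0.14, adjusted p = 0.040). None of the 3 genes overlapped between the lines, although for DDIT4 and PPP1R15A the gaps were small beside the spread within each line. PPP1R15B, the constitutive counterpart of GADD34, was at 129 to 136 CPM in DNMT3B KO and 145 to 160 CPM in HCT116 and did not pass (adjusted p = 0.088). CHAC1, a glutathione-degrading enzyme and a sensitive ATF4 and CHOP target, measured 10.0, 12.6 and 9.08 CPM in DNMT3B KO and 8.52, 4.91 and 13.7 CPM in HCT116, where the libraries of HCT116 alone spanned all those of DNMT3B KO (adjusted p = 0.66). Without DNMT3B KO replicates 1, 2 and 3 and HCT116 replicate 1 in turn, adjusted p was 0.051, 0.089, 0.051 and 0.10 for TRIB3, 0.14, 0.098, 0.067 and 0.13 for DDIT4, and 0.087, 0.14, 0.063 and 0.14 for PPP1R15A. The call of DDIT4 was also lost without HCT116 replicate 3 (adjusted p = 0.056).

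Most metabolic targets of ATF4 did not pass. Of 7 enzymes of serine, asparagine and mitochondrial one-carbon metabolism, 1 rose and 0 fell, and of 3 amino acid transporter genes 0 passed. Over all tested genes 28.1% passed, so most genes did not pass there either. PSPH, the last enzyme of serine synthesis, measured 57.4, 61.6 and 56.8 CPM in DNMT3B KO and 44.4, 45.7 and 48.1 CPM in HCT116, a narrow spread in both lines (log2 fold change 0.35, standard error 0.08, adjusted p = 0.015). Of its 50-base stretches 91.0% are unique, and its pseudogene PSPHP1 stayed below 0.06 CPM. The call was lost without any one of DNMT3B KO replicates 1, 2 and 3 or HCT116 replicate 1 (adjusted p = 0.054, 0.073, 0.051 and 0.085). The first enzyme of the same route, PHGDH, measured 147, 143 and 152 CPM in DNMT3B KO and 194, 152 and 204 CPM in HCT116, in the other direction (log2 fold change -0.32, standard error 0.12, adjusted p = 0.082). SHMT2, the mitochondrial serine hydroxymethyltransferase, measured 257, 268 and 256 CPM in DNMT3B KO and 320, 273 and 380 CPM in HCT116 (log2 fold change -0.32, standard error 0.13, adjusted p = 0.095). In both genes all DNMT3B KO libraries were below all HCT116 libraries, by little for HCT116 replicate 2.

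Asparagine synthetase, ASNS, measured 203, 211 and 218 CPM in DNMT3B KO and 239, 195 and 263 CPM in HCT116, and its groups overlapped (adjusted p = 0.42). Nearly all of its transcript is shared with an overlapping gene model, ENSG00000284707, which was listed at 7.68 to 8.81 CPM over the 6 libraries, so the split between them is uncertain. The serine synthesis enzyme PSAT1 measured 263, 295 and 283 CPM in DNMT3B KO and 253, 182 and 332 CPM in HCT116, and the folate enzyme MTHFD2 392.3, 450.0 and 434 CPM in DNMT3B KO and 435, 372 and 529 CPM in HCT116. In both, HCT116 held the lowest and the highest library. ALDH1L2, a folate dehydrogenase, was low in both lines, at 1.38 to 1.48 CPM in DNMT3B KO and 0.635 to 1.05 CPM in HCT116 (log2 fold change 0.75, standard error 0.28, adjusted p = 0.079). STC2, a secreted glycoprotein, was at 60.1 to 79.1 CPM in DNMT3B KO and 59.1 to 76.6 CPM in HCT116. VLDLR, a lipoprotein receptor, had 0 counts in all 6 libraries.

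SLC7A5, the large neutral amino acid transporter, had the widest range of the abundant genes. It measured 572, 631 and 565 CPM in DNMT3B KO and 725, 527 and 1120 CPM in HCT116, so that HCT116 replicate 3 was 2.12-fold above HCT116 replicate 2 (adjusted p = 0.23 between the lines). SLC3A2, whose product pairs with SLC7A5 at the membrane, measured 252, 288 and 273 CPM in DNMT3B KO and 318, 246 and 421 CPM in HCT116. The cationic amino acid transporter SLC7A1 measured 180, 192 and 178 CPM in DNMT3B KO and 179, 151 and 228 CPM in HCT116. All 3 transporters were highest in HCT116 replicate 3 and lowest in HCT116 replicate 2, with the DNMT3B KO libraries close together between them.

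This division within HCT116, noticed after the values were seen and given without a test, ran through most of the set. HCT116 replicate 3 was the highest and replicate 2 the lowest HCT116 library for 23 of the 37 genes (62.2%), where the same order held for 29.0% of all tested genes. It held for 8 of the 10 enzymes and transporters and 8 of the 9 ATF6-arm genes. It held for only 1 of the 4 XBP1-arm genes and 1 of the 5 feedback and effector genes. The opposite order, replicate 2 highest and replicate 3 lowest, held for 5 of the 37 (13.5%), against 34.2% of all tested genes. Of the 4 XBP1-arm genes, 2 had this opposite order. Over the 37 genes, the log2 range over 3 libraries had a median of 0.18 in DNMT3B KO and 0.43 in HCT116. Over all tested genes, the medians were 0.23 in DNMT3B KO and 0.43 in HCT116, so the set as a whole was not wider in HCT116. For the 10 enzymes and transporters they were 0.11 in DNMT3B KO and 0.55 in HCT116. For the 9 ATF6-arm genes they were 0.18 in DNMT3B KO and 0.32 in HCT116.

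Which targets passed differed with the HCT116 library left out. For each gene named in this paragraph, replicate 2 was the lowest and replicate 3 the highest HCT116 library. Leaving out either one thus moves the HCT116 mean in a direction already known from these values. The adjusted p-values below therefore show dependence on a single library and give no support for a difference. Without HCT116 replicate 2, 19 genes of the set passed (34.1% of all genes did), 10 higher and 9 lower. The lower ones then included SLC7A5 (log2 fold change -0.66, adjusted p = 0.015), SLC3A2 (-0.46, adjusted p = 0.022), PHGDH (-0.45, adjusted p = 0.0028), SHMT2 (-0.44, adjusted p = 0.0081) and ASNS (-0.27, adjusted p = 0.041). Without HCT116 replicate 3, 16 passed (32.8% of all genes did), 12 higher and 4 lower, and none of those 5 genes was among them. Their log2 fold changes were then -0.09 for SLC7A5, -0.06 for SLC3A2, -0.23 for PHGDH, -0.19 for SHMT2 and -0.04 for ASNS. The genes that joined the higher ones were ATF5, ATF6, HERPUD1 and CALR.

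**Figure D3:**
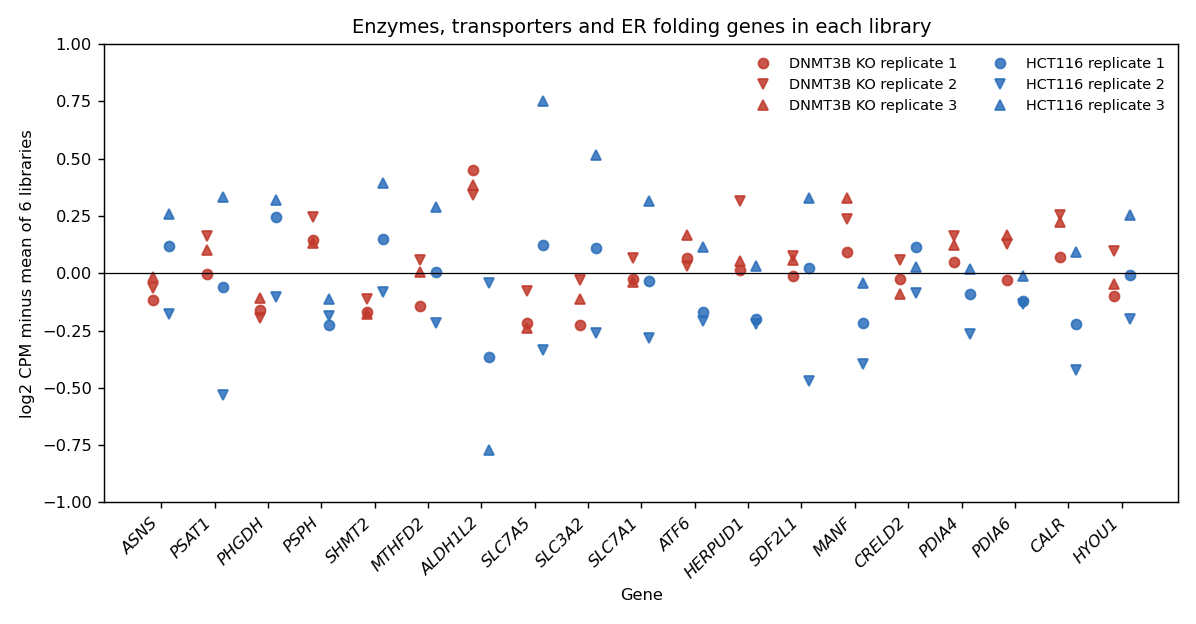
Log2 CPM minus the mean of the 6 libraries (y axis) for the enzymes, transporters and ATF6-arm genes (x axis), with 1 symbol per library, DNMT3B KO in red to the left and HCT116 in blue to the right of each gene. HCT116 replicate 3 (upward blue triangle) lies highest and HCT116 replicate 2 (downward blue triangle) lowest of the HCT116 libraries for 8 of the 10 enzymes and transporters and 8 of the 9 ATF6-arm genes.

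In the XBP1 arm, the level of XBP1 itself was 63.7, 70.8 and 68.5 CPM in DNMT3B KO and 67.5, 61.5 and 74.1 CPM in HCT116, with means of 67.7 ± 3.66 and 67.7 ± 6.31 CPM (SD, n = 3 each; log2 fold change -0.00, standard error 0.10, adjusted p = 0.99). EDEM1, which directs misfolded glycoproteins to degradation, measured 15.6, 15.01 and 12.5 CPM in DNMT3B KO and 20.2, 26.0 and 14.8 CPM in HCT116 (log2 fold change -0.50, standard error 0.20, adjusted p = 0.105). It passed only without HCT116 replicate 3 (adjusted p = 0.0095), the lowest HCT116 library. SEL1L, a scaffold of the degradation complex, measured 92.0, 97.1 and 102 CPM in DNMT3B KO and 106, 94.2 and 75.5 CPM in HCT116, and its groups overlapped. ERN1, described with the sensors, was the single member of this arm that passed.

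In the ATF6 arm, MANF, a secreted ER-resident survival factor, was the gene that passed. It measured 115, 127 and 135 CPM in DNMT3B KO and 92.7, 81.8 and 105 CPM in HCT116, without overlap (log2 fold change 0.43, standard error 0.11, adjusted p = 0.025). Its call was lost without DNMT3B KO replicate 2 or 3 or HCT116 replicate 1 (adjusted p = 0.088, 0.11 and 0.092). The lectin chaperone CALR measured 1039, 1179 and 1153 CPM in DNMT3B KO and 849, 737 and 1055 CPM in HCT116, where HCT116 replicate 3 reached into the DNMT3B KO range (log2 fold change 0.35, standard error 0.14, adjusted p = 0.103). PDIA4, a disulfide isomerase, measured 480, 520 and 507 CPM in DNMT3B KO and 437, 387 and 470 CPM in HCT116, just without overlap (adjusted p = 0.15). CALR and PDIA4 passed by upper-quartile scaling. CALR, ATF6 and HERPUD1 passed without HCT116 replicate 3, the highest HCT116 library for each of them (adjusted p = 0.011, 0.045 and 0.047).

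The remaining ATF6-arm genes overlapped between the lines. HERPUD1, an ER membrane component of degradation, was at 56.6 to 69.8 CPM in DNMT3B KO and 48.1 to 57.4 CPM in HCT116, and the isomerase PDIA6 at 318 to 365 CPM in DNMT3B KO and 296 to 321 CPM in HCT116. SDF2L1 was at 32.2 to 34.2 CPM in DNMT3B KO and 23.4 to 40.8 CPM in HCT116, CRELD2 at 30.6 to 33.8 CPM in DNMT3B KO and 30.6 to 35.2 CPM in HCT116, and the chaperone HYOU1 at 284 to 325 CPM in DNMT3B KO and 265 to 363 CPM in HCT116. The log2 fold changes of the 8 genes of the arm that did not pass lay between -0.04 and 0.35. Per kilobase of canonical transcript, the level of CALR was the highest of the set, at 591 CPM in DNMT3B KO and 463 CPM in HCT116, followed by ATF4 at 346 CPM in DNMT3B KO and 311 CPM in HCT116.

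**Figure D4:**
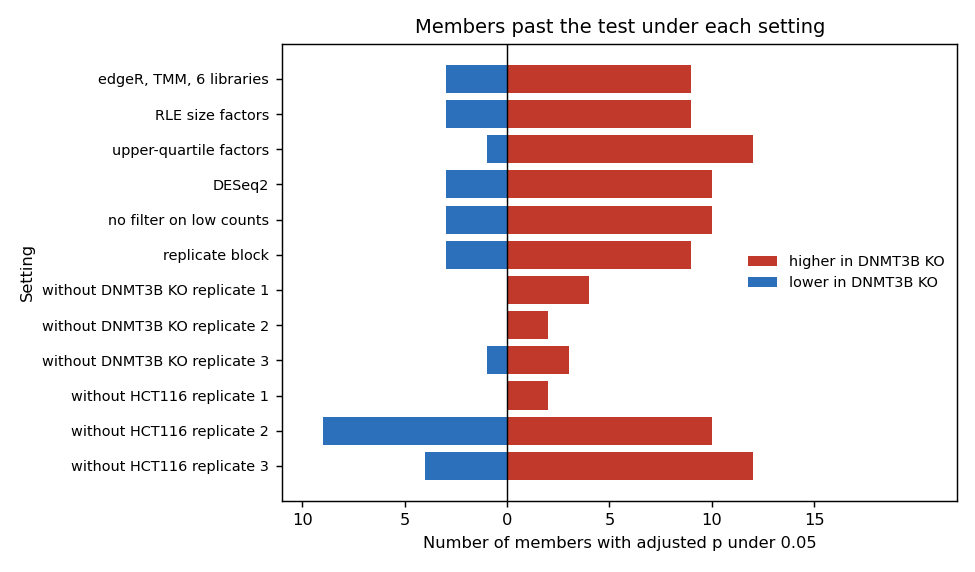
Number of the 37 genes with an adjusted p under 0.05 (x axis) in each setting (y axis), higher in DNMT3B KO to the right in red and lower to the left in blue. The fit with all libraries called 9 and 3, leaving out HCT116 replicate 2 called 10 and 9, and leaving out HCT116 replicate 1 called 2 and 0.

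Other genes of the same pathways were read from lists written from textbook knowledge. Of 100 tested, 10 rose, 22 fell and 68 did not pass, with a median log2 fold change of -0.06, so that 32.0% passed against the 28.1% of all tested genes. By upper-quartile scaling 18 rose and 21 fell. Of the 6 genes that changed at least 2-fold with a call, CREB3L1 rose and GDF15, ARFGAP3, SEC31A, SLC7A11 and PDIA5 fell.

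Of 19 further targets of ATF4 and CHOP, 2 rose and 6 fell, and the counts of this and the next lists stand beside 12.9% of all tested genes higher and 15.1% lower. GDF15, a stress-induced cytokine that p53 also activates, measured 3.88, 6.52 and 4.28 CPM in DNMT3B KO and 116, 141 and 79.4 CPM in HCT116 (log2 fold change -4.52, standard error 0.28, adjusted p = 2.4e-05). SLC7A11, the cystine transporter, measured 35.6, 34.4 and 32.1 CPM in DNMT3B KO and 108, 83.1 and 97.3 CPM in HCT116 (-1.50 on the log2 scale, standard error 0.11, adjusted p = 6.4e-05). The death receptor gene TNFRSF10B and SESN2, both also p53 targets, had log2 fold changes of -0.86 and -0.89 (standard errors 0.11 and 0.19). All 4 genes were lower in every DNMT3B KO library than in every HCT116 library. The 2 that rose, named after their values were seen, were the stress-induced transcription factor ATF3 and the neutral amino acid transporter SLC1A4, and neither overlapped between the lines. The log2 fold change of ATF3 was 0.46 (standard error 0.12, adjusted p = 0.026), and the call was lost without DNMT3B KO replicate 1 or 2 or HCT116 replicate 1 (adjusted p = 0.068, 0.10 and 0.10). The log2 fold change of SLC1A4 was 0.61 (standard error 0.17, adjusted p = 0.028), and the call was lost without any one of DNMT3B KO replicates 1, 2 and 3 or HCT116 replicate 1 (adjusted p = 0.060, 0.11, 0.070 and 0.080) and in the fit with a replicate block (adjusted p = 0.062). The call of SESN2 was lost without DNMT3B KO replicate 3 (adjusted p = 0.051).

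Among 14 tested tRNA synthetase and tRNA export genes, 2 rose and 2 fell. The methionine enzyme MARS1 measured 147, 156 and 132 CPM in DNMT3B KO and 272, 200 and 324 CPM in HCT116 (-0.87 on the log2 scale, standard error 0.17, adjusted p = 0.0067), and the valine enzyme VARS1 fell by 0.47 on the log2 scale (standard error 0.09). XPOT, the tRNA exporter, and LARS1, the leucine enzyme, had log2 fold changes of 0.39 and 0.29 (standard errors 0.11 and 0.08). These increases were lost without HCT116 replicate 1 or any one DNMT3B KO library (adjusted p up to 0.12 for XPOT and for LARS1), and that of LARS1 also when unfiltered and when blocked by replicate number. Among 15 genes of eIF2, its kinases, its exchange factor and related factors such as GCN1 and EIF2A, 1 rose and 3 fell. GCN1, which activates GCN2, measured 222, 196 and 198 CPM in DNMT3B KO and 388, 341 and 434 CPM in HCT116 (log2 fold change -0.92, standard error 0.11, adjusted p = 0.00075). EIF2AK4, described with the sensors, was lower as well, and a link between these genes was not tested. EIF2A and the eIF2 subunit EIF2S3 also fell, with log2 fold changes of -0.49 and -0.45 (standard errors 0.08 and 0.10), and the exchange factor subunit EIF2B1 rose by 0.56 (standard error 0.16). The call of EIF2S3 was lost without DNMT3B KO replicate 1 or 2 (adjusted p up to 0.062) and that of EIF2B1 without HCT116 replicate 1 or any one DNMT3B KO library (adjusted p up to 0.12).

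Of 19 further ER chaperone and folding genes, 1 rose and 4 fell. CANX, the membrane-bound partner of CALR, measured 487, 583 and 562 CPM in DNMT3B KO and 1015, 973 and 1259 CPM in HCT116 (-0.99 on the log2 scale, standard error 0.13, adjusted p = 0.0010). The isomerase PDIA5 fell by 1.11 on the log2 scale (standard error 0.17), MYDGF by 0.42 (standard error 0.09) and the prolyl isomerase PPIB by 0.47 (standard error 0.10), the last lost without DNMT3B KO replicate 1 or 3 (adjusted p up to 0.064). HSPA5, the ER chaperone BiP and the usual marker of this response, chosen here after its values were seen, measured 993, 1181 and 1212 CPM in DNMT3B KO and 1078, 999.9 and 1348 CPM in HCT116 (log2 fold change -0.02, standard error 0.14, adjusted p = 0.95).

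Of 21 further genes of ER-associated degradation and secretion, 2 rose and 5 fell. SEC31A, a COPII coat subunit, measured 16.8, 13.2 and 14.5 CPM in DNMT3B KO and 81.4, 83.1 and 82.5 CPM in HCT116 (log2 fold change -2.47, standard error 0.11, adjusted p = 3.7e-06). ARFGAP3, which acts on COPI vesicles, measured 1.80, 2.13 and 1.65 CPM in DNMT3B KO and 26.2, 33.4 and 20.4 CPM in HCT116 (log2 fold change -3.84, standard error 0.22, adjusted p = 1.5e-05). EDEM2, a relative of EDEM1, fell by 0.61 on the log2 scale (standard error 0.11), while SELENOS, a selenoprotein of the degradation complex, rose by 0.53 (standard error 0.09). Among 12 other transducers of the response, 2 rose and 2 fell. CREB3L1, a membrane-bound transcription factor of the ATF6 type, measured 4.85, 4.38 and 4.24 CPM in DNMT3B KO and 0.376, 0.471 and 0.238 CPM in HCT116 (log2 fold change 3.61, standard error 0.29, adjusted p = 8.6e-05). Its relative CREB3L2 fell by 0.82 (standard error 0.10) and the apoptosis gene BAX by 0.59 (standard error 0.09), and ATF6B rose by 0.54 (standard error 0.14), a call lost without DNMT3B KO replicate 1 or 2 (adjusted p up to 0.092).

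**Figure D5:**
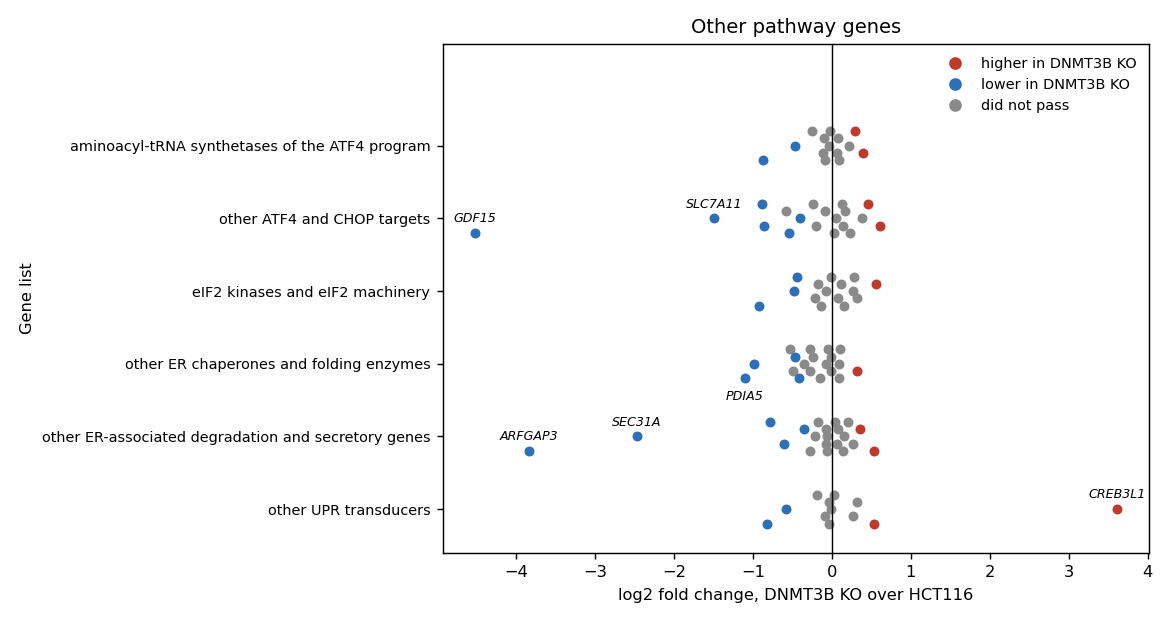
Log2 fold change of DNMT3B KO over HCT116 (x axis) for the 100 tested genes outside the 38, 1 point per gene, by list (y axis), with genes that changed at least 2-fold named. Red passed as higher (10 genes), blue as lower (22 genes) and grey did not pass, and the points farthest from 0 are GDF15 at -4.52, ARFGAP3 at -3.84 and CREB3L1 at 3.61.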

How the data were processed

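RNA-seq libraries of DNMT3B KO and HCT116 cells (3 each) were grouped by the sample titles. Using nf-core/rnaseq, the authors aligned reads to hg38 (STAR), quantified Ensembl transcripts (Salmon) and deposited gene-level estimated counts, length-scaled but not normalised between libraries.

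Estimated counts were rounded, filtered with filterByExpr and normalised by TMM. The lines were compared in edgeR 4.0.16 under R 4.3.3 by quasi-likelihood F tests, with no factor besides genotype and with Benjamini-Hochberg adjustment over 16959 genes. Standard errors are the log2 fold change divided by the square root of F. The fit was tested on simulated data. Levels are normalised CPM. Gene models came from GENCODE release 44 (hg38) and promoters from RefSeq. Overlap of transcripts was computed over 50-base stretches.

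The members and lists were chosen with earlier results of these data known. Every member that passed, the sensors and main transcription factors, and up to 4 called genes of each other list, by adjusted p, were to be named, and values of further members are given too. Alternatives were RLE and upper-quartile factors, DESeq2 1.42.0, no filter, a replicate block, an adjusted p under 0.01 and leaving out each library.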

Additional observations from a re-analysis of the deposited data

How the results depend on the processing

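With RLE factors, and also in the fit with a replicate block, 9 members were higher and 3 lower, as in the fit reported, and 12 members called there were called here too. The replicate numbers showed no clear pairing of the libraries. The deviations of same-numbered libraries correlated at 0.064, -0.0096 and 0.12, and those of differently numbered libraries at -0.12 to 0.084. With 3 libraries per line, these values cannot settle whether the numbers mark pairs. The block left the count of calls over all genes at 1890 higher and 2324 lower and changed the call of no member. DESeq2 and the fit with no filter each added ATF5. Upper-quartile factors gave 1 lower in the ATF4 arm, 3 higher in the ATF6 arm, 0 lower in the XBP1 arm, 1 lower over all members and 18 higher among the other pathway genes. At an adjusted p under 0.01, 1077 genes were higher and 1571 lower, 2 members higher and 0 lower, 2 ATF4-arm genes higher and 0 lower, 0 ATF6-arm genes higher, 0 XBP1-arm genes lower, and 2 other pathway genes higher.

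Leaving out 1 library gave 1283 to 2868 higher and 1758 to 3143 lower genes, 2 to 12 members higher and 0 to 9 lower, 2 to 9 ATF4-arm genes higher and 0 to 8 lower, 0 to 4 ATF6-arm genes higher, 0 to 2 XBP1-arm genes lower, and 2 to 16 other pathway genes higher and 17 to 27 lower. The member count was 4, 2 and 4 without DNMT3B KO replicates 1, 2 and 3, and 2, 19 and 16 without HCT116 replicates 1, 2 and 3, and between 17.6% and 34.1% of all tested genes passed. No called member changed direction in any of these fits. Of the 24 genes outside the members that were named by adjusted p, 17 kept their call in all 11 alternatives at the same threshold. Of the 12 called members, only DDIT3 kept its call in every one of these 11.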
